A study of Mus musculus with 12 samples.

Results

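The neutrophil granule and alarmin genes examined here were Ngp, Camp, Ltf, Lcn2, S100a8, S100a9, Mmp9, Retnlg, Cd177 and Mpo. Every probe whose platform annotation gave one of these 10 symbols was taken, which gave 15 of the 45281 probes on the array: 1 probe for each gene except Ltf and Cd177 with 2 and Mpo with 4. The RNA came from CD4-CD8 double-negative thymocytes, the immature thymus cells that carry neither coreceptor, sorted from C57BL/6 mice aged 2 months, and was hybridised to Illumina MouseWG-6 v2.0 BeadChips. The 12 arrays comprised 6 wild-type, 3 CD2-LMO2 transgenic, and 3 CD2-Lmo2 transgenic, Lyl1 knockout samples, here called the Lyl1 knockout. The Lyl1 knockout samples therefore carry a transgene as well, and no group lacked Lyl1 without it. The submitted intensity columns of wild-type replicates 4 to 6 carry the extra tag NHD13, which no label explains. CD2 regulatory sequences are used to drive a transgene in T-lineage cells, in which Lmo2, a bridging protein of transcription factor complexes, is normally shut off as the cells mature. Lyl1 is a basic helix-loop-helix factor that takes part in such complexes. The labels do not say whether the samples of a group came from separate mice, so the p-values below measure only the spread between these samples.

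Neutrophils make their granules in an order. Primary granules, with Mpo, are filled at the promyelocyte stage, secondary granules, with Ltf, Camp, Ngp and Lcn2, at the myelocyte stage, and tertiary granules, with Mmp9, later still. S100a8 and S100a9 form calprotectin, a calcium-binding heterodimer that fills the neutrophil cytosol and acts as an alarmin when released. These genes are known chiefly from myeloid cells, and which cells in these samples made the transcripts was not tested.

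Values are the authors' log2 intensities, and a probe was called above background on an array when its deposited detection p-value was under 0.05. The median intensity before normalisation was 122.7 to 205.5 units on the 9 arrays whose intensity columns could be tied to a sample. Between 37.9% and 43.0% of probes were above background on an array, and the number of arrays limits the precision. For wild-type replicates 4 to 6 the detection p-values come from 3 columns that could be tied to the group but not to one replicate each, so for these arrays only the number above background is given. The Lyl1 probe was above background on all 9 arrays of the other groups and on none of the 3 Lyl1 knockout arrays, where it read 4.80 to 5.03. The Lmo2 probe read 5.75 to 7.35 on the CD2-LMO2 arrays, 7.65, 8.90 and 7.78 on the Lyl1 knockout arrays and 6.77 to 8.62 on the wild-type arrays, and no source states whether it reads the transcript of the transgene. The sorted cells carried T-lineage transcripts: Cd3e, an invariant chain of the T-cell receptor complex, read 13.40 to 13.58 on every array. Of the coreceptors, Cd8a was not above background on any array. The brighter Cd4 probe was above background on 2 wild-type, 1 CD2-LMO2 and 3 Lyl1 knockout arrays, at 4.94 to 6.03 over all 12. The Cd8b1 probe was above background on every array, at 9.80 to 13.19. In bulk RNA of this kind, fewer cells of a type and less RNA per cell cannot be told apart.

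The promoters of 6 members are shown: the secondary granule genes Ngp, Camp and Ltf, the alarmin pair S100a8 and S100a9, and Mpo. The secondary granule genes and the alarmins moved together and varied among the wild-type arrays, and Mpo followed the others least. Each sequence is the 250 bases before the RefSeq gene start (GRCm38.p6), written 5′ to 3′ on the gene's strand, and capitals mark matches to TTNNGNAA on either strand, a consensus of the C/EBP factors that direct granule gene transcription.
Ngp: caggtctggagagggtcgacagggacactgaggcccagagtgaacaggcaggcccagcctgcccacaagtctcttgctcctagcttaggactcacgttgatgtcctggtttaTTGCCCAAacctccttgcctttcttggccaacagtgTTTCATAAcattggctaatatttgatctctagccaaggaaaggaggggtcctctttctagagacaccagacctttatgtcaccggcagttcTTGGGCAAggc
Camp: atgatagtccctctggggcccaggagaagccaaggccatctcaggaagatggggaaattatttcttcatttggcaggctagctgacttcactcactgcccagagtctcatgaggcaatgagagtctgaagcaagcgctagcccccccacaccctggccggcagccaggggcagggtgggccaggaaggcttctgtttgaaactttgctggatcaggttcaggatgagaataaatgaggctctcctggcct
Ltf: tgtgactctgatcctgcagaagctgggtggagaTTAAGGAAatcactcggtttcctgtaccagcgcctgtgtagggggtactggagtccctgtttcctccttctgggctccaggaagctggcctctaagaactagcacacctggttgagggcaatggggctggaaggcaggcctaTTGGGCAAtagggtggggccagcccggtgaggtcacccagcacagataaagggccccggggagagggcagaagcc
S100a8: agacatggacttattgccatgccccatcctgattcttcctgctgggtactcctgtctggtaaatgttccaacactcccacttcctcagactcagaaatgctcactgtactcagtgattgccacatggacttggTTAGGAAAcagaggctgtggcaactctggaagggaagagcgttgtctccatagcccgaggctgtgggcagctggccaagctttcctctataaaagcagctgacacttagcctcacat
S100a9: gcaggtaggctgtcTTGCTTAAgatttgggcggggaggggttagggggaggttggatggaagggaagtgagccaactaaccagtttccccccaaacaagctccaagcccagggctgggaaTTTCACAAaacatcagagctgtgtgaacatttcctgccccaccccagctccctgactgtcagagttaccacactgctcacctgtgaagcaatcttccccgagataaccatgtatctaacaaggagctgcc
Mpo: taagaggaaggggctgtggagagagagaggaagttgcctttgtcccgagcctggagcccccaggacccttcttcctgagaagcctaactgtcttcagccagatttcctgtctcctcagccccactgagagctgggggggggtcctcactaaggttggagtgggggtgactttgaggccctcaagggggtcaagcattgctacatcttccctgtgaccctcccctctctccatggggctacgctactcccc
The windows lie at chr9:110419558-110419807 on the plus strand for Ngp, chr9:109849457-109849706 on the minus strand for Camp and chr9:111019042-111019291 on the plus strand for Ltf, so these 3 secondary granule genes sit on the same chromosome. The S100a8 window is chr3:90668821-90669070 on the plus strand and the S100a9 window is chr3:90695722-90695971 on the minus strand, and the Mpo window is chr11:87793534-87793783 on the plus strand. Of the 10 members, 9 had a RefSeq promoter (not Mmp9), and 7 of these 9 held the C/EBP word, against 36.8% of all 32851 promoters read over the same window. The Ngp window held 3 matches, those of Ltf and S100a9 held 2 each, and that of S100a8 held 1. The Camp and Mpo windows held none. The word GAGGAA, a core bound by PU.1 and other ETS factors, was in 5 of the 9 windows against 23.3% of all promoters, counted on both strands, with 2 matches each in S100a8 and Mpo. The E-box CANNTG, the class of site that basic helix-loop-helix factors such as Lyl1 recognise, was in 5 of the 9 against 66.2% of all promoters. A match describes the letters only.

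The comparison of the Lyl1 knockout with the CD2-LMO2 transgenic group shows what differed without Lyl1 when a transgene was present in both groups. The sample titles write it CD2-LMO2 in the transgenic group and CD2-Lmo2 in the Lyl1 knockout. Whether both groups carry the same transgene was not tested. All 10 genes were higher in the Lyl1 knockout by their brightest probe, by log2 differences of 3.81 to 7.24. Of the 15 probes, 12 were higher and 0 lower at an adjusted p under 0.05 in limma, where 3.25% of the 20651 probes tested were called higher and 3.78% lower, and all 15 were higher at an unadjusted p under 0.05. The median log2 difference over the 15 probes was 4.30, beside 0.02 over all probes tested. In 14 of the 15 the lowest Lyl1 knockout array lay above the highest CD2-LMO2 array, which held for 12.4% of all probes. All 15 probes passed the filter of 3 arrays above background, but the dimmer Ltf and the dimmer Cd177 probe passed through the 3 Lyl1 knockout arrays alone. Of the other 13 probes, 10 were called higher and 12 had no overlap.

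Some markers of other cells moved between the same groups. Of 5 natural killer cell genes tested, 3 were higher in the Lyl1 knockout (3.25% of all probes), Klrd1 by 2.13, Klra3 by 1.75 and Klrb1c by 1.39 log2 units. Their mean log2 level was 8.32 to 9.29 in CD2-LMO2, 9.70 to 10.26 in Lyl1 knockout and 10.63 to 10.95 in wild-type arrays. Cd8b1, a chain of the CD8 coreceptor, was higher by 2.08 (adjusted p = 0.000763, limma). Of 4 eosinophil, mast cell and basophil genes tested, only Cpa3, the mast cell carboxypeptidase, was called, at a log2 difference of -4.34 (adjusted p = 3.36e-06, limma). Prg2, Il5ra and Fcer1a were at 0.17, -0.39 and -0.20. The mast cell genes Ms4a2, Tpsab1 and Mcpt4 were not above background on any array. Of 14 markers of double-negative T cells, Ptcra, Rag1 and Cd44 were higher by 2.85, 1.35 and 1.26 log2 units, and Kit, the receptor of stem cell factor, was lower at -2.84. The mean log2 level of these 14 was 10.86 to 11.37 in CD2-LMO2, 11.16 to 11.24 in Lyl1 knockout and 11.25 to 11.44 in wild-type arrays. Their part in the result was not tested.

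The secondary granule genes had log2 differences of 7.06 to 7.24 on their brightest probes. Ngp, which encodes neutrophilic granule protein of the cathelicidin-related family, read 4.73, 5.31 and 5.43 on the CD2-LMO2 arrays and 10.83, 13.01 and 12.92 on the Lyl1 knockout arrays. Its log2 difference was 7.10 ± 0.93 (SE, limma, n = 3 against 3, adjusted p = 0.00046), which is 137-fold, with 1 CD2-LMO2 array not above background. The groups were separated by more than 5 log2 units at their nearest arrays, and replicate 1 stood below the other two Lyl1 knockout arrays. Camp, the precursor of the antimicrobial cathelicidin peptide, read 4.49, 5.43 and 4.91 against 10.55, 12.82 and 12.64, and rose by 7.06 ± 0.94 (adjusted p = 0.000535, limma). Only replicate 2 of the CD2-LMO2 arrays was above background for Camp. Ltf, the iron-binding lactotransferrin, read 4.89, 6.98 and 5.10 against 11.48, 13.33 and 13.43 on its brighter probe, a log2 difference of 7.09 ± 0.97 (adjusted p = 0.000674, limma). Its dimmer probe was above background on the 3 Lyl1 knockout arrays only, at 6.00, 8.44 and 8.53, and was at least 5.20-fold higher there. Such a bound sets the knockout mean against the lowest signal that counted as above background on the arrays of the dim group. Lcn2, the siderophore-binding lipocalin also made by other cell types under inflammation, read 4.60, 5.89 and 4.84 against 11.03, 12.85 and 13.18 with 1 of the 3 CD2-LMO2 arrays above background, and had a log2 difference of 7.24 ± 1.05 (adjusted p = 0.000945, limma).

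The alarmin pair was the only part of the set above background on all 12 arrays. S100a8 read 6.75, 10.08 and 7.23 on the CD2-LMO2 arrays and 13.84, 14.16 and 14.43 on the Lyl1 knockout arrays. The knockout values lie close to the 14.72 that is the highest value of any probe on 11 of the 12 arrays, so the scale leaves little room above them. The log2 difference of S100a8 was 6.13 ± 1.16 (adjusted p = 0.00589, limma). S100a9 read 5.71, 8.29 and 6.03 against 12.72, 13.88 and 13.94, a difference of 6.84 ± 1.25 (adjusted p = 0.0046, limma). For both genes replicate 2 was the high array of the CD2-LMO2 group, by over 2 log2 units.

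Mmp9, the gelatinase of tertiary granules, read 5.04, 5.66 and 5.36 against 7.85, 10.43 and 9.98, and rose by 4.07 ± 0.70 (adjusted p = 0.00319, limma). Retnlg, a secreted resistin-like protein of mouse myeloid cells, read 4.95, 7.14 and 5.44 against 9.73, 11.65 and 11.93, and rose by 5.26 ± 1.13 (adjusted p = 0.0126, limma). Neither gene's groups overlapped. Cd177, a glycosylphosphatidylinositol-anchored neutrophil surface protein also stored in granules, was not above background on any CD2-LMO2 array. Its brighter probe read 7.38, 9.65 and 9.79 in the Lyl1 knockout and was at least 12.6-fold higher there (adjusted p = 0.000954, limma). The dimmer Cd177 probe was at least 3.64-fold higher.

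Mpo, the myeloperoxidase of primary granules, behaved less evenly. Its brightest probe read 4.79, 6.08 and 4.75 on the CD2-LMO2 arrays, 1 of them above background, and 6.46, 10.64 and 9.96 on the Lyl1 knockout arrays. The log2 difference was 3.81 ± 0.81 (adjusted p = 0.0123, limma), with replicate 1 of the Lyl1 knockout only slightly above the highest CD2-LMO2 array. The other 3 Mpo probes did not pass the threshold, at adjusted p of 0.127, 0.0564 and 0.071 in limma. The second brightest, not above background on any CD2-LMO2 array, read 4.64, 9.16 and 8.70 in the Lyl1 knockout, and its groups overlapped. Without replicate 2 or without replicate 3 of the Lyl1 knockout, the brightest Mpo probe had adjusted p of 0.0553 and 0.0654, and Retnlg had 0.0576 and 0.0627 (limma). In each of these fits 10 of the 15 probes were called higher, beside 2.06% and 2.16% of all probes. Without replicate 1 all 15 probes were called higher (2.38% of all probes).

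**Figure D1:**
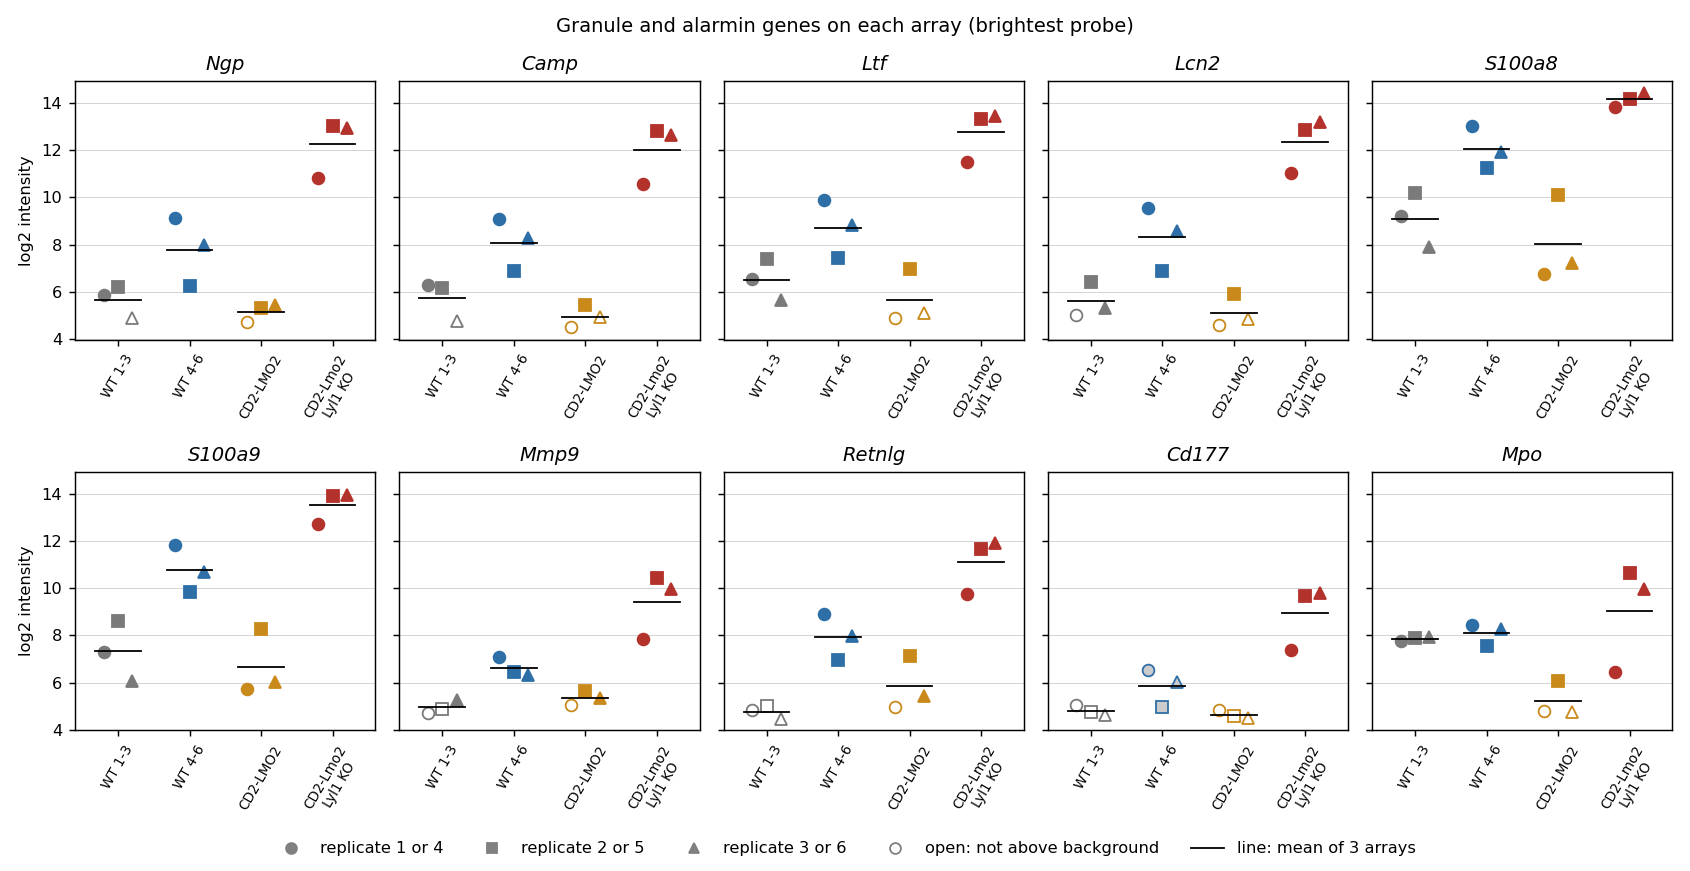
Log2 intensity of the brightest probe of each of the 10 genes (vertical axis) on the 12 arrays, grouped as wild-type (WT) replicates 1 to 3, wild-type replicates 4 to 6, CD2-LMO2 transgenic, and CD2-Lmo2 transgenic with Lyl1 knockout (KO). Open symbols were not above background, grey-filled symbols mark a probe above background on 2 of the 3 wild-type arrays 4 to 6, and lines are means of 3 arrays. The 3 Lyl1 knockout arrays are the highest for 9 genes, and for Mpo the first of them, at 6.46, lies under all 6 wild-type arrays.

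Against the 6 wild-type arrays the Lyl1 knockout was also higher for the secondary granule genes, Mmp9 and Cd177, and the wild-type arrays themselves spread over several log2 units. Of the 15 probes, 8 were higher and 0 lower in limma, where 0.397% of all tested probes were called higher and 0.31% lower, and 12 were higher at an unadjusted p under 0.05. By the brightest probe, 6 of the 10 genes were called: Ngp, Camp, Ltf, Lcn2, Mmp9 and Cd177. In 11 of the 15 probes, all except those of Mpo, the 3 Lyl1 knockout arrays lay above all 6 wild-type arrays, which held for 4.39% of all probes. Among these 8 and these 11 are the dimmer Ltf and Cd177 probes, which passed the filter through the Lyl1 knockout arrays alone. Without them 6 of 13 were called and 9 of 13 had no overlap. The median log2 difference over the 15 was 3.61, beside 0.00176 over all probes tested.

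Ngp read between 4.89 and 9.14 with a median of 6.22 in the wild-type arrays, and the log2 difference to the Lyl1 knockout was 5.54 ± 0.80 (adjusted p = 0.00692, limma). Camp read 4.75 to 9.07 with a median of 6.59 and differed by 5.10 ± 0.81 (adjusted p = 0.0119, limma). Ltf read 5.64 to 9.89 with a median of 7.41 and differed by 5.13 ± 0.84 (adjusted p = 0.0138, limma). In these 3 genes the lowest Lyl1 knockout array was 1.48 to 1.70 log2 units above the highest wild-type array. Lcn2 read 5.04 to 9.55 with a median of 6.64 and differed by 5.39 ± 0.91 (adjusted p = 0.0156, limma). Mmp9, above background on 4 of the 6 wild-type arrays, read 4.69 to 7.08 and differed by 3.64 ± 0.61 (adjusted p = 0.0149, limma). Cd177, above background on 2 of the 6, read 4.62 to 6.55 and differed by 3.61 ± 0.54 (adjusted p = 0.00751, limma). The dimmer Ltf and Cd177 probes were above background on no wild-type array and were at least 5.18-fold and at least 3.63-fold higher in the Lyl1 knockout.

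S100a9 and S100a8 had the largest standard deviations over all 6 wild-type arrays, 2.15 and 1.87 log2 units, beside 1.86 for Retnlg and 1.79 for Lcn2. These values include the shift between the 2 wild-type sets. Within replicates 1 to 3 and within replicates 4 to 6 they were 1.28 and 1.00 for S100a9 and 1.14 and 0.90 for S100a8. For Lcn2 they were 0.73 and 1.36. The difference of the 2 alarmins to the Lyl1 knockout did not pass the threshold. S100a8 read 7.88 to 13.001 with a median of 10.69 in the wild-type arrays, and its log2 difference was 3.58 ± 1.00 (adjusted p = 0.185, limma). S100a9 read 6.05 to 11.81 with a median of 9.21, and its difference was 4.47 ± 1.08 (adjusted p = 0.109, limma). For both, the intervals of the difference, 1.39 to 5.77 and 2.12 to 6.83, lay above 0 before adjustment. Retnlg, above background on 3 of 6 wild-type arrays, read 4.47 to 8.91 and differed by 4.75 ± 0.98 (adjusted p = 0.0524, limma). Mpo read 7.55 to 8.43 in the wild-type arrays, and its log2 difference of 1.05 ± 0.70 (adjusted p = 0.563, limma) had an interval of -0.48 to 2.58. All 8 calls needed both of the higher Lyl1 knockout arrays: without replicate 2, and without replicate 3, 0 of the 15 probes passed in limma (0.092% and 0.116% of all probes called higher), 11 were higher at an unadjusted p under 0.05 in each case, and the lowest adjusted p was 0.0638 and 0.0633. Without replicate 1, 10 passed (0.547% of all probes), and Mpo was then among them at 2.33 (adjusted p = 0.0107, limma).

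The difference was also taken against each set of 3 wild-type arrays. Against wild-type replicates 1 to 3 alone, 8 probes were higher in the Lyl1 knockout (0.174% of all probes), and against replicates 4 to 6 alone, 9 were (3.99%). Beside the calls against all 6 arrays, S100a9 and Retnlg were gained and the dimmer Ltf and Cd177 probes were lost against the first set, and Retnlg was gained against the second. Ngp differed by 6.60 log2 units from the first set and by 4.48 from the second (adjusted p = 0.00353 and 0.0176, limma). S100a9 differed by 6.20 and 2.75 (adjusted p = 0.0173 and 0.0507), so its call held against replicates 1 to 3 only. S100a8 differed by 5.07 and 2.09 and was called against neither set (adjusted p = 0.0536 and 0.12, limma). Retnlg differed by 6.34 and 3.16 and was called against both (adjusted p = 0.00833 and 0.0392, limma). Mpo differed by 1.16 and 0.94 on its brightest probe and was called against neither.

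**Figure D2:**
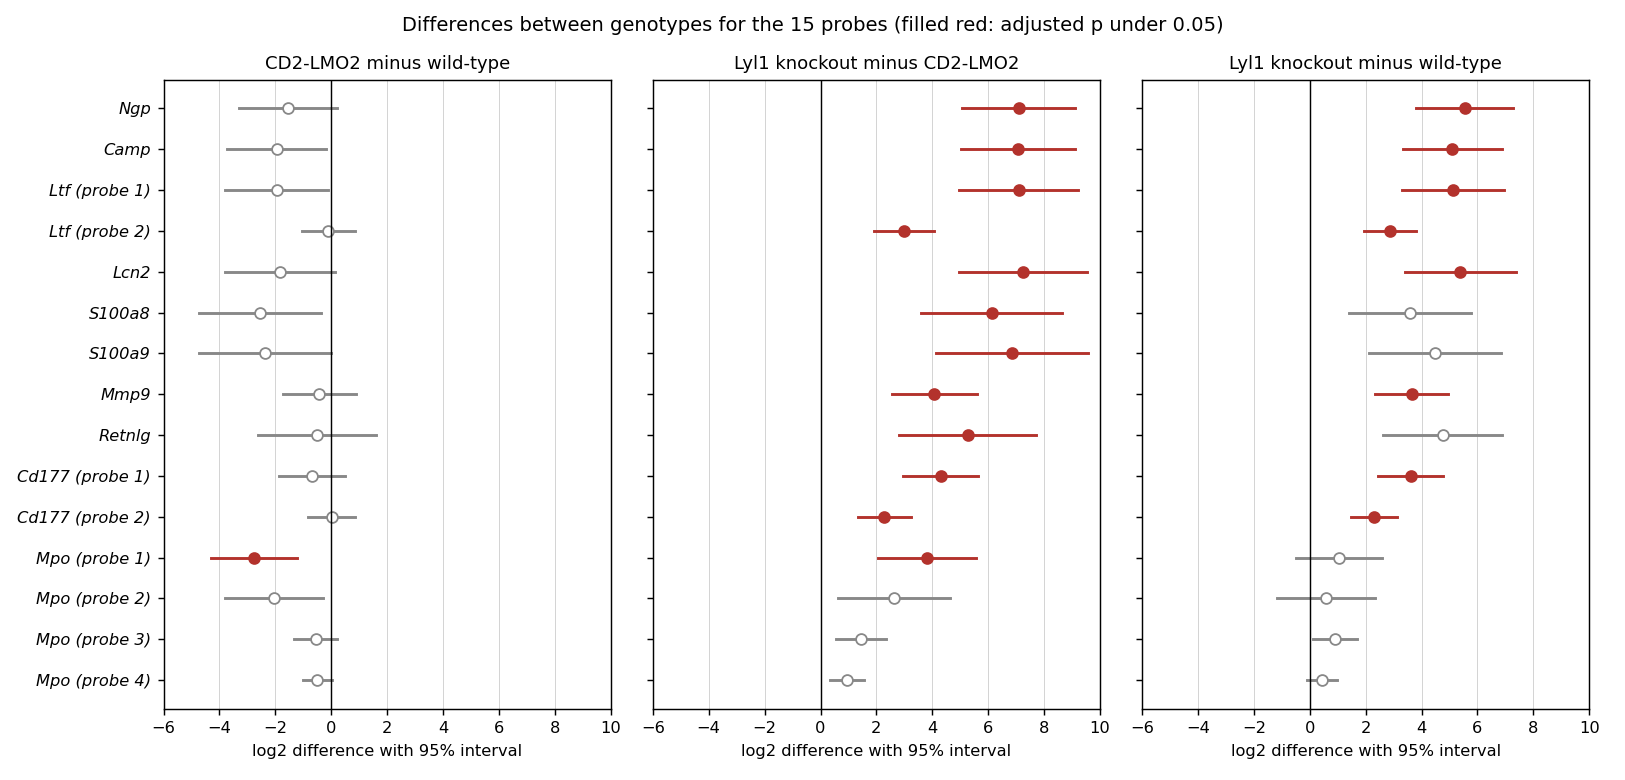
Log2 differences (horizontal axis) with 95% intervals for the 15 probes in the 3 comparisons between genotypes, from limma; probes of one gene are numbered from the brightest, and filled red points have an adjusted p under 0.05. The middle panel has 12 red points, the right panel 8 and the left panel 1, the brightest Mpo probe.

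Between CD2-LMO2 transgenic and wild-type arrays, which show what differed with the transgene, Mpo was the only member called. The brightest Mpo probe read 7.55 to 8.43 with a median of 7.91 in wild-type cells and 4.79, 6.08 and 4.75 in CD2-LMO2 cells, so that the groups were separated by more than 1 log2 unit. It fell by 2.76 ± 0.70 on the log2 scale (adjusted p = 0.0294, limma). Of the 15 probes, 1 was lower and 0 higher, counts near the shares over all probes tested (4.18% lower and 4.65% higher). At an unadjusted p under 0.05, 6 were lower and 0 higher. All 4 Mpo probes, and no other member probe, had every CD2-LMO2 array below every wild-type array, which held for 6.1% of all probes. The 2 dimmest Mpo probes were each above background on 1 wild-type array and on no CD2-LMO2 array, so their order here is among values near background. The call of the brightest probe was lost in 12 of 24 alternatives, among them wild-type replicates 1 to 3 alone (adjusted p = 0.175), wild-type replicates 4 to 6 alone (0.0674), and the fits without wild-type replicate 4 (0.0604), wild-type replicate 6 (0.0587), CD2-LMO2 replicate 1 (0.0935) or CD2-LMO2 replicate 3 (0.0977).

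The other members had log2 differences of -2.55 to 0.01 in this comparison, and their value depended on which wild-type arrays were used. Set against wild-type replicates 4 to 6 alone, 6 probes were lower in CD2-LMO2 cells, where 9.3% of all probes were called lower. S100a9 was then at -4.09 (adjusted p = 0.00749) and S100a8 at -4.03 (adjusted p = 0.0111, limma). Lcn2 was at -3.21, Camp at -3.13, Ltf at -3.06 and Ngp at -2.62, with adjusted p of 0.0212, 0.0166, 0.0301 and 0.0461 in limma. Set against wild-type replicates 1 to 3 alone, 0 of the 15 probes passed in limma (2.33% of all probes called lower), 1 was lower at an unadjusted p under 0.05, and the 6 probes just named had log2 differences between -1.06 and -0.48. Retnlg and Mmp9, at -0.51 and -0.42 against all 6 wild-type arrays, were at 1.08 and 0.40 against these 3 and were called in neither case. Within the CD2-LMO2 group, replicate 2 was the highest array for 11 of the 15 probes (31.2% of all tested probes).

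The 2 sets of wild-type arrays stood apart for these genes. The submitted intensity columns of wild-type replicates 4 to 6 carry the tag NHD13, which no label explains. What separates these arrays from replicates 1 to 3 is therefore not known here. Of the 15 probes, 3 were higher and 0 lower in replicates 4 to 6 in limma (3.1% of all tested probes called higher and 3.17% lower), and 8 were higher and 0 lower at an unadjusted p under 0.05. In 9 of the 15 every array of replicates 4 to 6 lay above every array of replicates 1 to 3, which held for 20.4% of all probes. Retnlg read 4.82, 4.99 and 4.47 in replicates 1 to 3, none above background, and 8.91, 6.95 and 7.98 in replicates 4 to 6. It was at least 6.75-fold higher in the latter (adjusted p = 0.0274, limma). S100a9 read 7.30, 8.61 and 6.05 against 11.81, 9.82 and 10.66, a log2 difference of 3.44 ± 0.79 (adjusted p = 0.0337, limma). Lcn2 read 5.04, 6.42 and 5.33 against 9.55, 6.86 and 8.56, a difference of 2.73 ± 0.72 (adjusted p = 0.0491, limma).

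The order within the second set was nearly the same for all members. Replicate 4 was the highest of the 6 wild-type arrays for 13 of the 15 probes (13% of all tested probes), and replicate 5 was the lowest of its set for 14 (30.4%). Replicate 3 was the lowest of the 6 for 10 probes (18.7%). S100a8 read 9.19, 10.16 and 7.88 against 13.001, 11.22 and 11.93, a log2 difference of 2.97 ± 0.82 that did not pass (adjusted p = 0.0555, limma). The brightest Mpo probe read 7.77, 7.87 and 7.94 against 8.43, 7.55 and 8.25, with a difference of 0.22 and an interval of -1.64 to 2.08. The 3 calls do not survive the loss of single arrays: in each fit that left out one of wild-type replicates 2 to 6, 0 of the 15 probes passed in limma, with 6 to 9 higher at an unadjusted p under 0.05. Over all 20651 probes these fits called 32 to 324, beside 1295 in the main fit, so calls of all kinds were lost. Markers of other cell types differed between the sets as well. The mean log2 level of the 8 dendritic cell genes tested was 10.17 to 10.32 in replicates 1 to 3 and 8.90 to 9.38 in replicates 4 to 6. Of the 8, H2-Aa at -2.67 and H2-Eb1 at -1.93 were called lower in the latter (adjusted p = 0.0173 and 0.035, limma). The rest were not called. Cd74, H2-Ab1, Tcf4, Clec9a and Siglech were at -1.61, -1.44, -0.65, -0.48 and -0.29, and Bst2 went the other way at 0.64. The 7 B cell genes tested were at 7.30 to 7.58 against 6.75 to 6.86, and the 4 eosinophil, mast cell and basophil genes at 6.37 to 6.58 against 7.06 to 7.14. Their part in the result was not tested.

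Replicate 1 was the lowest of the 3 Lyl1 knockout arrays for 15 of 15 probes, where 34.3% of all tested probes were lowest on it. Between replicates 2 and 3 the members had no common order, and these arrays differed from each other by at most 0.69 log2 units on any of the 15. The mean of replicates 2 and 3 exceeded replicate 1 by 0.45 log2 units for S100a8 and 1.19 for S100a9. The excess was 1.90 to 2.49 for the secondary granule probes, 2.06 for Retnlg, 2.33 and 2.08 for the brighter and dimmer Cd177 probes, and 2.35 for Mmp9. It was 3.84 and 4.29 for the 2 brighter Mpo probes, where the second was not above background on replicate 1, and 1.63 and 1.17 for the 2 dimmer ones. Over all tested probes, on values already normalised to a common distribution, the median excess was -0.002. The median intensity before normalisation was 145.6 on replicate 1, 205.5 on replicate 2 and 139.7 on replicate 3, which places replicate 1 between the other two.

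Replicate 1 stood differently for Mpo than for the other members. For the 11 probes other than Mpo, replicate 1 lay above the highest wild-type array, by 0.68 to 1.70 log2 units. For the 4 Mpo probes it lay below the highest wild-type array, and the brightest read 6.46, under all 6 wild-type values. The second brightest Mpo probe was not above background on replicate 1, although it was on all 6 wild-type arrays. The primary granule serine proteases Elane, Prtn3 and Ctsg, made at the same stage as Mpo, were compared on the same arrays. Elane, neutrophil elastase, read 6.36, 9.08 and 8.49 on the 3 Lyl1 knockout arrays, against 4.81 to 5.37 in wild-type cells, so replicate 1 lay above all 6 wild-type arrays for this primary granule gene. Prtn3, proteinase 3, read 4.71, 7.79 and 7.49, and Ctsg, cathepsin G, read 4.98, 7.07 and 6.30. Prtn3 and Ctsg were thus not above background on replicate 1, as the second Mpo probe was not, whereas Elane was. In wild-type cells Mpo was above background on all 6 arrays, Elane and Ctsg on 2 each and Prtn3 on 1.

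**Figure D3:**
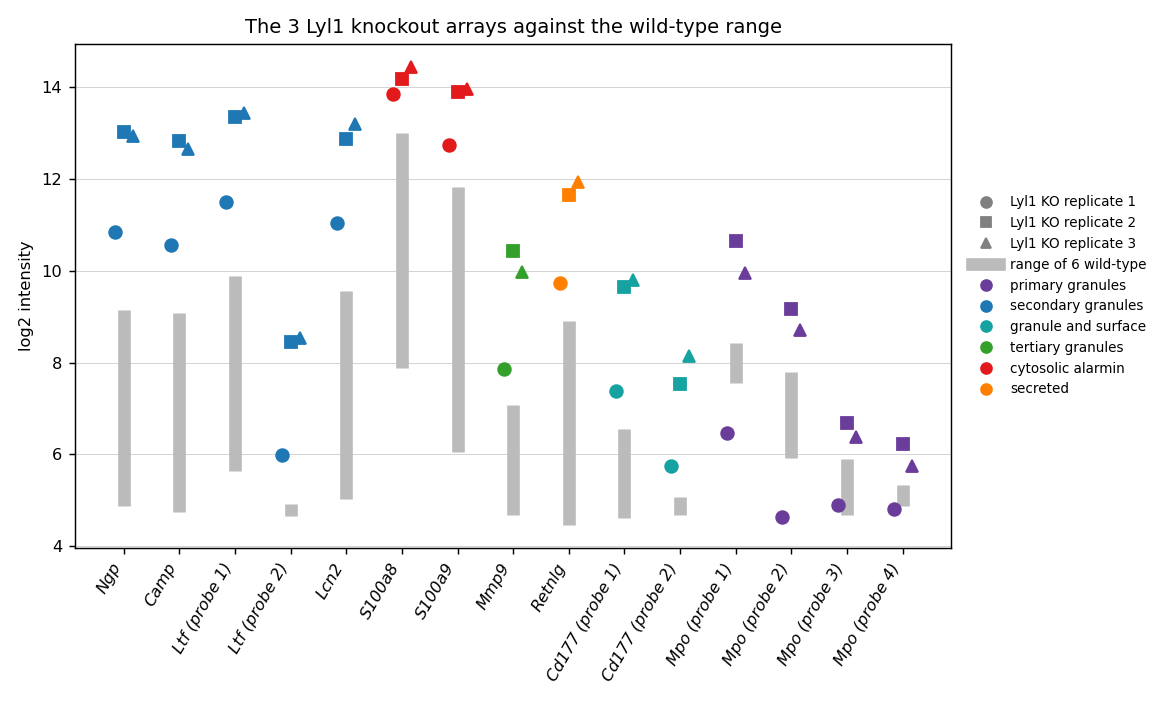
Log2 intensity (vertical axis) of the 15 probes on the 3 Lyl1 knockout arrays, coloured by the compartment of the protein, over the range of the 6 wild-type arrays (grey bars). Circles, replicate 1, are the lowest of the 3 for every probe, and for the 4 Mpo probes at the right they lie below the top of the wild-type range.

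Across the 12 arrays the members moved together, Mpo least. As a description over arrays that share genotype and set, Pearson's r was 0.994 between Ngp and Camp, 0.992 between Ltf and Lcn2 and 0.991 between S100a8 and S100a9, taking the brightest probe of each gene. For Mpo the values with the other 9 genes were 0.633 to 0.750. The 8 other genes most like the mean standardised profile of the members were Il1b, Fpr2, Ltb4r1, Trem3, Hp, Chil1, Mgst1 and Chil4, with r from 0.976 down to 0.941. Il1b encodes the cytokine interleukin-1 beta, Fpr2 a formyl peptide receptor, Ltb4r1 a leukotriene B4 receptor and Hp haptoglobin. The 5 most like the brightest Mpo probe were different genes: Ffar2, Ifitm1, Agap1, Rab38 and 1190007I07Rik, with r from 0.960 to 0.914. Ffar2 is a receptor for short-chain fatty acids and Ifitm1 an interferon-induced membrane protein. Chil4 and the related Chil3 are close paralogs, and how far their probes read each other's transcript was not tested.

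Other neutrophil genes were also higher in the Lyl1 knockout. Of 39 further neutrophil genes on the array, 29 were tested. In the Lyl1 knockout against CD2-LMO2, 19 were higher and 1 was lower, with a median log2 difference of 1.98, where 3.25% of all probes were called higher. Of the 29, Cxcr2, Mmp25, Stfa1 and Itgb2l passed the filter through the Lyl1 knockout arrays alone. Of the other 25, 15 were higher and 1 lower. Chil3, a chitinase-like granule protein, read 8.58, 11.77 and 11.82 in the Lyl1 knockout, was above background on no CD2-LMO2 array and was at least 43.5-fold higher (adjusted p = 0.000279, limma). Fpr2 was at least 28.8-fold higher and Hp at least 12.7-fold higher, while Ifitm6 rose by 4.35 on the log2 scale. Cxcr2, the chemokine receptor of mature neutrophils, was above background on the 3 Lyl1 knockout arrays, at 5.84, 7.62 and 8.03, and on no other array. The gene that was lower, Clec4e, a C-type lectin receptor of myeloid cells, read 8.55, 8.82 and 10.04 in CD2-LMO2 cells and 5.12, 5.88 and 5.32 in the Lyl1 knockout. Against wild-type, 14 of the 29 were higher in the Lyl1 knockout (0.397% of all probes), 10 of them among these 25. CD2-LMO2 against wild-type gave 2 higher, Clec4e and Clec4d, and 1 lower, Pglyrp1, a peptidoglycan-binding granule protein. These counts are near the shares over all probes, 4.65% higher and 4.18% lower. Itgam, the CD11b integrin chain, was not above background on any array.

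The other neutrophil genes repeated the order of the Lyl1 knockout arrays, since all 29 were lowest on replicate 1, with a median excess of 1.45 for replicates 2 and 3. Their summed linear level was 14959 to 40863 in the Lyl1 knockout and 6591 to 21813 in CD2-LMO2 cells, so the 2 ranges overlapped. In such a sum the brightest probes weigh most, and Lyz1 and Lyz2 read 13.43 and 12.27 on CD2-LMO2 replicate 1. As mean log2 levels the ranges were 7.16 to 8.87 and 6.06 to 6.41 and did not overlap. Lyz1 and Lyz2, the paralogous lysozymes that macrophages also make, were above background on all 12 arrays and did not pass the threshold (adjusted p = 0.307 and 0.188, limma).

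Among 11 tested factors of granulocyte development, Csf3r, Csf2ra and Csf2rb were higher in the Lyl1 knockout than in CD2-LMO2 cells and Gfi1 was lower. Over all probes, 3.25% were called higher and 3.78% lower in this comparison. Csf2rb read 5.26 to 5.29 on the Lyl1 knockout arrays, close to the background limit. Csf3r, the receptor of granulocyte colony-stimulating factor, read 4.67, 4.85 and 5.28 in CD2-LMO2 cells, none above background, against 6.72, 8.21 and 7.84, and was at least 4.96-fold higher (adjusted p = 0.00331, limma). Csf2ra, a subunit of the GM-CSF receptor, rose by 2.46 from CD2-LMO2 to the Lyl1 knockout and fell by 2.66 from wild-type to CD2-LMO2 on the log2 scale (adjusted p = 0.0022 and 0.000384, limma). Cebpe, the C/EBP factor required for secondary granules, read 5.38 on Lyl1 knockout replicate 1, 8.30 on replicate 2 and 7.88 on replicate 3, and did not pass (adjusted p = 0.389, limma). In wild-type cells it read 4.44 to 4.99 in replicates 1 to 3 and 6.44 to 6.83 in replicates 4 to 6. Cebpa was not above background on any Lyl1 knockout or CD2-LMO2 array. Of 9 other S100 genes tested, S100a6 and S100a4 were higher in the Lyl1 knockout than in CD2-LMO2 cells, by 2.04 and 1.40 log2 units, and the same 2 were lower in CD2-LMO2 than in wild-type cells. The CD2-LMO2 arrays are shared by both comparisons, for Csf2ra as for the S100 genes.

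Of the receptors and binding partners of the members' proteins, most did not pass the threshold. Of 10 tested, Fpr2, Tlr2 and Cd33, which in humans binds S100A9, were higher in the Lyl1 knockout than in CD2-LMO2 cells, and Pecam1, the ligand of Cd177, was lower by -1.18 (adjusted p = 0.00793, limma). Over all probes, 3.25% were called higher and 3.78% lower. Tlr4 and Ager, both described as receptors of calprotectin, had adjusted p of 0.604 and 0.884 in limma. Of 7 monocyte and macrophage markers tested, 0 were called in the Lyl1 knockout against CD2-LMO2 in limma, with 1 higher and 2 lower at an unadjusted p under 0.05. C1qb and F13a1 were higher in CD2-LMO2 than in wild-type cells, where 4.65% of all probes were called higher. The 7 genes had mean log2 levels of 5.33 to 5.80 in wild-type and 6.15 to 6.72 in CD2-LMO2 arrays. On the Lyl1 knockout arrays their mean was 5.81, 5.98 and 6.27, so replicate 1 was only just above the highest wild-type array. Unlike the members, the genes did not share 1 order of these arrays. Adgre1 read 5.27, 7.26 and 7.27, lowest on replicate 1, and C1qb read 6.35, 5.17 and 6.40, lowest on replicate 2. The part of these 7 genes in the result was not tested.

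**Figure D4:**
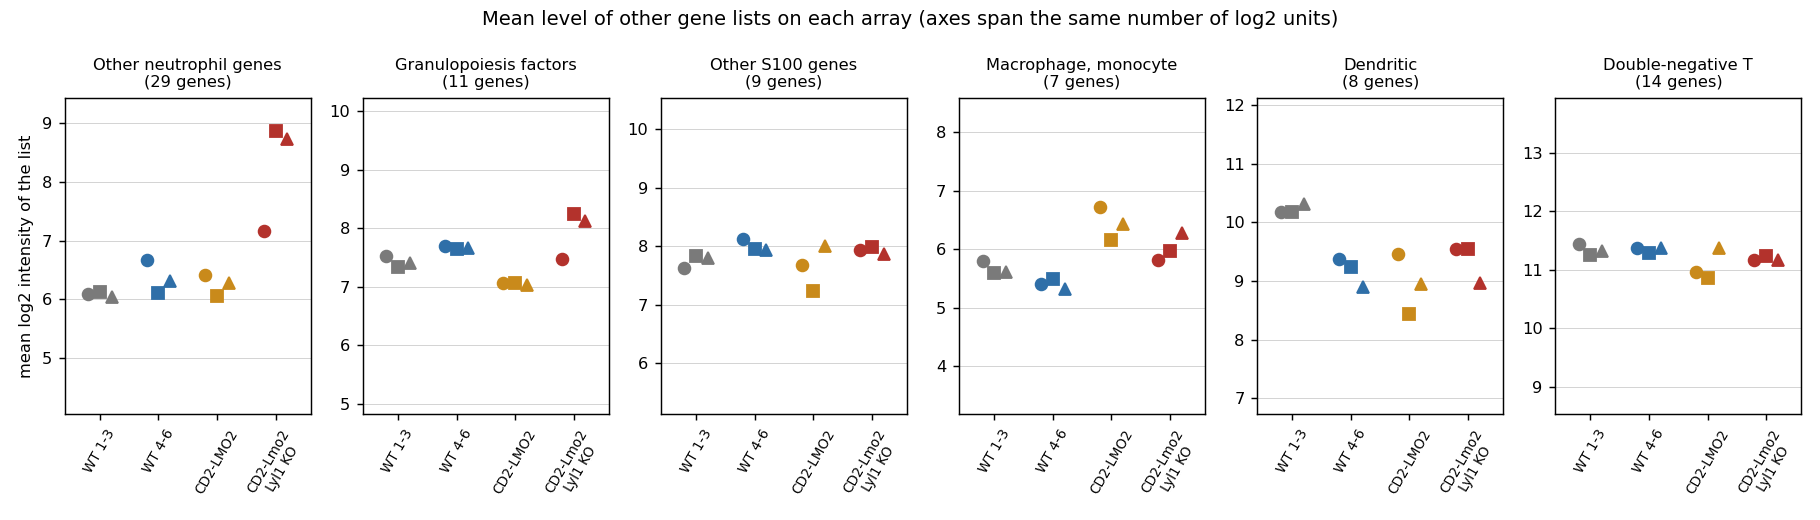
Mean log2 intensity (vertical axis) of the tested genes of 6 lists on each array, grouped as wild-type (WT) replicates 1 to 3 and 4 to 6, CD2-LMO2 transgenic, and Lyl1 knockout (KO); circles, squares and triangles are the replicates in order of their number. The other neutrophil genes are at 7.16 to 8.87 on the Lyl1 knockout arrays and at most 6.67 elsewhere, while the highest macrophage and dendritic values lie on CD2-LMO2 and wild-type arrays.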

How the data were processed

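Total RNA (300 ng per sample) from sorted thymocytes was labelled and hybridised, per the labels' protocols, and the submitters' processing notes name BeadStudio and limma without versions. The authors' deposited value table holds log2 intensities for 12 arrays. The submitted non-normalized file holds raw intensity and a detection p-value for each probe and array, as deposited by the authors. In that file the columns of 9 arrays match 1 sample each. The names of the other 3 match the wild-type group but no single replicate: their detection p-values were used for the group as a whole, and their 3 intensity columns were not used. On the 9 arrays the log2 table correlated at 0.9998 or more with the intensities after background correction and quantile normalisation (limma's neqc, offset 16), which set its scale and direction.

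Probes above background (p under 0.05) on at least 3 of 12 arrays were tested, 20651 of 45281. A fold is given as a lower bound (at least N-fold) where no array of 1 group was above background. For wild-type replicates 4 to 6 the background limit in such a bound was taken from the column with the fewest probes above background. limma 3.58.1 in R 4.3.3 was fitted to the log2 values over the 3 genotypes (and, for the wild-type sets, 4 groups), with Benjamini-Hochberg adjustment over all probes tested and a threshold of 0.05. A gene in a list was read from its brightest tested probe. The script was tested on simulated data. Of the probes, 34885 have 1 gene symbol, 18 several and 10378 none, and no gene was named from a probe with several. Promoters came from RefSeq (GRCm38.p6). The genes and lists were chosen with earlier results of these data known. All probes of the 10 members were reported. Other genes were named as the called genes with the largest changes in each list, as defining markers, or as the 8 and 5 genes most like the members and Mpo; Elane, Prtn3, Ctsg, Cxcr2, Mmp25, Stfa1, Itgb2l, Cebpe, Cebpa, Tlr4, Ager and the lysozymes were singled out after their values were seen. Whether replicate numbers pair the samples is not known, and the main fits treated them as unpaired. The deviations of same-numbered arrays correlated between -0.35 and 0.21, with 3 of 9 pairs over 0.1. Those of differently numbered arrays ran from -0.29 to 0.35, a like range, so these values cannot decide it.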

Additional observations from a re-analysis of the deposited data

How the results depend on the processing

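In the Lyl1 knockout against CD2-LMO2, 12 of 15 member probes were called, beside 1452 of all 20651 probes. The count was 9 to 13 under the alternatives to the normalisation, filter and model, and 10 to 15 without single arrays. Detection on 6 arrays and 1 probe per gene each left 10 member probes, of which 9 and 10 were called. Against wild-type (8, beside 146 over all probes) the count was 5 and 7 of the 10 member probes left by these 2 settings, where fewer probes were tested. It was 7 to 11 under the other alternatives, and 0 to 10 without single arrays. The 11 came with array weights, which called 4642 over all probes. For CD2-LMO2 against wild-type (1, beside 1825 over all probes) the count was 0 without the filter, with array weights and against wild-type replicates 1 to 3 alone. Over all probes these settings called 1699, 1864 and 947. The count was 6 against replicates 4 to 6 alone (3651 over all probes), 2 with only the 2 groups fitted (1334), and 0 to 2 without single arrays. Between the wild-type sets (3, beside 1295 over all probes) the count was 7 with only those 2 groups fitted and 8 with array weights. These larger counts came with more calls over all probes, 2921 and 7827. The count was 1 with a trended robust prior (1398 over all probes), and 0 to 6 without single arrays. No call reversed, and the cause of these changes was not tested.

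The planned normalisations from raw intensities were not run on all 12 arrays, because 3 intensity columns could not be tied to a sample. After the data had been seen they were run on the other 9, with wild-type replicates 1 to 3 alone: neqc, quantile normalisation without background correction, and scaling to a common median gave 12, 10 and 12 member probes for the Lyl1 knockout against CD2-LMO2, 9, 7 and 10 against wild-type, and 0 each for CD2-LMO2 against wild-type. All 15 probes were lowest on Lyl1 knockout replicate 1 in each. Median scaling moved the median probe by 0.12 and 0.22 log2 units for the Lyl1 knockout against CD2-LMO2 and against wild-type, and 59.2% of 871 and 62.2% of 82 calls over all probes were higher, beside 46.3% of 1452 and 56.2% of 146 in the value table. Without background correction 35.5% of 62 calls against wild-type were higher. For CD2-LMO2 against wild-type, these 3 settings called 968, 1005 and 654 probes, and neqc called 79 for the Lyl1 knockout against wild-type.

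With the replicate number as a block in the fit, 11, 7 and 0 member probes were called in the Lyl1 knockout against CD2-LMO2, against wild-type, and in CD2-LMO2 against wild-type. Over all probes 949, 31 and 789 were called, beside 1452, 146 and 1825 in the main fit. Numbers 4 to 6 occur in wild-type only, so the block takes those arrays out of the differences between genotypes. The like fit without a block, with wild-type replicates 1 to 3 alone, called 12, 8 and 0 member probes and 1225, 75 and 947 over all probes. With only the 2 groups fitted, 700 were called in the Lyl1 knockout against CD2-LMO2 and 224 against wild-type. Between the wild-type sets (1295) that setting called 2921, array weights 7827, 1 probe per gene 705 and fits without single arrays 32 to 3232. Array weights called 4642 in the Lyl1 knockout against wild-type. Without Lyl1 knockout replicates 2 or 3, 962 and 958 were called against CD2-LMO2, and 44 and 49 against wild-type. Against wild-type replicates 1 to 3 or 4 to 6 alone, 75 and 1804 were called in the Lyl1 knockout, and 947 and 3651 in CD2-LMO2. S100a8 near the top of the scale and probes near background limit what the arrays can show.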
